A study of Mus musculus with 10 samples.

Results

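The 44 genes described here encode the machinery of mitosis, from cyclin B and its kinase to the spindle, the kinetochore, condensin and the cytokinetic ring. They were chosen by symbol from a list of mitosis and spindle genes, with earlier results of these data known. All 44 were found in the deposited count table, which holds values for 49164 genes. Polyadenylated RNA was measured in the epithelial layer of mouse gums, freed with Dispase and split by side, in 5 buccal libraries (the side facing the cheek) and 5 palatal libraries (the side facing the palate). The labels name no strain, age, sex, treatment or microbial status for either side, nor do they tie a library to an animal. The series' design text describes a comparison of pooled samples from specific-pathogen-free (SPF) and germ-free (GF) mice, and nothing in the labels says whether these 10 libraries are pools or which of these mice they came from. The p-values therefore reflect only the scatter among these libraries, which may be technical.

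Entry into mitosis is driven by Cdk1 bound to cyclin B, after which condensin compacts the chromosomes, kinetochores attach them to spindle microtubules, the spindle checkpoint holds anaphase until all are attached, and the central spindle guides cytokinesis. Transcripts of these genes build up in G2 and mitosis and are low in resting cells. In gingival and other stratified epithelia, dividing keratinocytes lie in and next to the basal layer, while the differentiated layers above have left the cell cycle. Many of these genes are held off in resting cells by the DREAM complex and switched on in G2 by B-Myb, MuvB and FoxM1, which act through a promoter element called the cell cycle homology region (CHR), with core TTTGAA or TTCGAA, often near CCAAT boxes bound by NF-Y.

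These elements were looked for as letters on both strands of the RefSeq promoter windows (build GRCm38.p6, from 250 bases before to 50 bases after the gene start). The choice of the 44 genes made no use of sequence. As many of these genes are known to be switched on through the CHR, a high share was likely in advance. A window was given for 37 of the 44 genes, and not for Aurkb, Ccna2, Dlgap5, Incenp, Kif20a, Smc4 and Tpx2. The CHR letters were found for 30 of the 37 (81.1%), against 16.8% of the 10606 tested genes with a window and 21.7% of the 27025 genes of the promoter table. Within 50 bases on either side of the start they were found for 27 of the 37 (73.0%), against 4.6% of tested genes. CCAAT stood in the window of 28 genes (75.7%, against 42.8% of tested genes) and at 2 or more places in 18 (48.6%, against 16.4%). Both kinds of letters stood in the windows of 26 genes (70.3%, against 7.1%). A match is a description of the letters and not a measured binding site. The 4 stretches printed here belong to the genes with the smallest p in the comparison below among those with both kinds of letters before the start; each runs 5′ to 3′ on the gene's strand and ends at the last base before the start, with CHR and CCAAT letters of either strand in capitals.
Top2a (chr11:99024190-99024431, minus strand): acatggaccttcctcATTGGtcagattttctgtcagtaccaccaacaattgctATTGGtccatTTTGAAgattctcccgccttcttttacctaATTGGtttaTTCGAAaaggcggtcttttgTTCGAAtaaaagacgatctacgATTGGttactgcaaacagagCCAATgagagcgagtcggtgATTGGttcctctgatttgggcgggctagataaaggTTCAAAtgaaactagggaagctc
Cdk1 (chr10:69352913-69353135, minus strand): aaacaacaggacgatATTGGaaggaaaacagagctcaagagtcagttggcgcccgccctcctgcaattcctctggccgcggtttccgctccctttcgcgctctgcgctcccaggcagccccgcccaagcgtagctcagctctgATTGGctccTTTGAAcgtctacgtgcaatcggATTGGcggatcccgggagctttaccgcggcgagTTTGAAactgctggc
Kif11 (chr19:37376322-37376381, plus strand): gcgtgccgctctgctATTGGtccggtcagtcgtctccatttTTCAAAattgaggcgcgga
Ube2c (chr2:164769686-164769928, plus strand): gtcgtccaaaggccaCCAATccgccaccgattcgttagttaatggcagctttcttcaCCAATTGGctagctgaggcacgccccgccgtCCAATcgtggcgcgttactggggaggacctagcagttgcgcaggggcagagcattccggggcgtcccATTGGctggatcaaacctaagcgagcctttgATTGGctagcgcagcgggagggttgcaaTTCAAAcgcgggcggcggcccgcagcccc
Top2a held 4 CHR matches and 6 CCAAT matches in this stretch, with the CHR match nearest to the start beginning 23 bases before it. In Cdk1 the nearest CHR match began 15 bases before the start, in Kif11 19 and in Ube2c 29. A pair of the 6 CCAAT matches of Ube2c overlap on opposite strands. Birc5, Ccnb1, Cenpe, Mad2l1, Ncaph, Nuf2 and Nusap1 held no CHR letters in their windows.

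**Figure D1:**
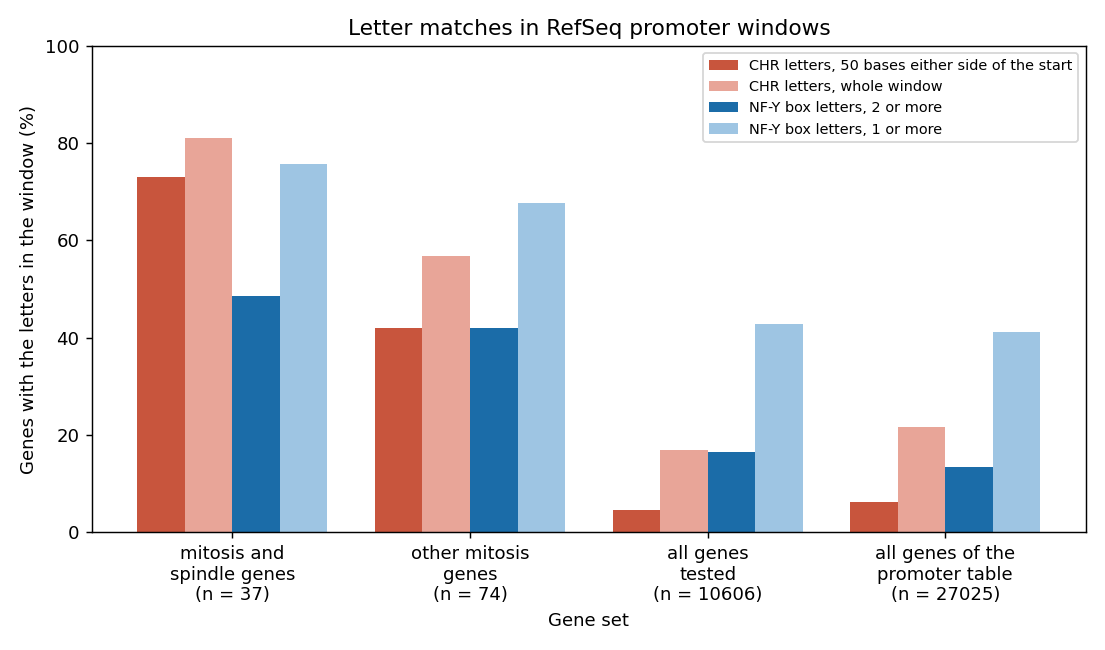
Percent of genes (vertical axis) whose promoter window holds the CHR letters or the NF-Y box letters, for the mitosis and spindle genes, other mitosis genes from a separate list, all tested genes and all genes of the promoter table; n is the number of genes with a window. CHR letters within 50 bases of the start were found for 73.0% of the mitosis and spindle genes, 41.9% of the other mitosis genes and 4.6% of tested genes.

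Total counts ran from 25868777 to 37234192 per library, with an exact two-sided permutation p of 0.698 between the sides (n = 5 per side). No pair of libraries within a side looked like a repeat of 1 library: over the 20 pairs, chi-square per degree of freedom ran from 8.29 to 64.0, where counting noise alone gives about 1. Basal keratinocyte markers summed to 11741 to 14581 CPM in buccal and 16399 to 20382 CPM in palatal libraries. Levels are given as CPM, the usual read count scaled to a fixed library size, with library sizes adjusted by TMM, a method that sets libraries on a common scale from the bulk of their genes. CPM values are not divided by transcript length, so they compare libraries within a gene and not genes with each other.

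The comparison asked whether mitotic transcripts differed between palatal and buccal gingival epithelium. They were lower in palatal: 43 of the 44 genes fell, 0 rose, and 1, Kif23, did not pass the test (edgeR's quasi-likelihood test, Benjamini-Hochberg adjusted p under 0.05 over 14062 genes, of which 20.3% were lower and 18.7% higher). The median log2 fold change, palatal minus buccal, was -0.64, a palatal level of 64.1% of the buccal level, while the median over all tested genes was 0.01. The interquartile range of the 44 genes was -0.76 to -0.55, and the whole range was -0.90 to -0.28, with a median standard error of 0.11. No gene reached a 2-fold difference in the fit, and 30 of the 44 were at least 1.5-fold lower. Over all tested genes, by the percentiles of the log2 fold change, about 11% were at least 1.5-fold lower and about 6% at least 2-fold lower. For 33 of the 44 genes every palatal library lay below every buccal library, a separation seen for 14.7% of all tested genes. Against a fold of 1.5, 5 of the 44 passed as lower (Ccnb1, Aurka, Plk1, Nusap1 and Top2a), where 5.8% of all tested genes did. In bulk RNA a smaller share of dividing cells and less transcript per dividing cell cannot be told apart.

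**Figure D2:**
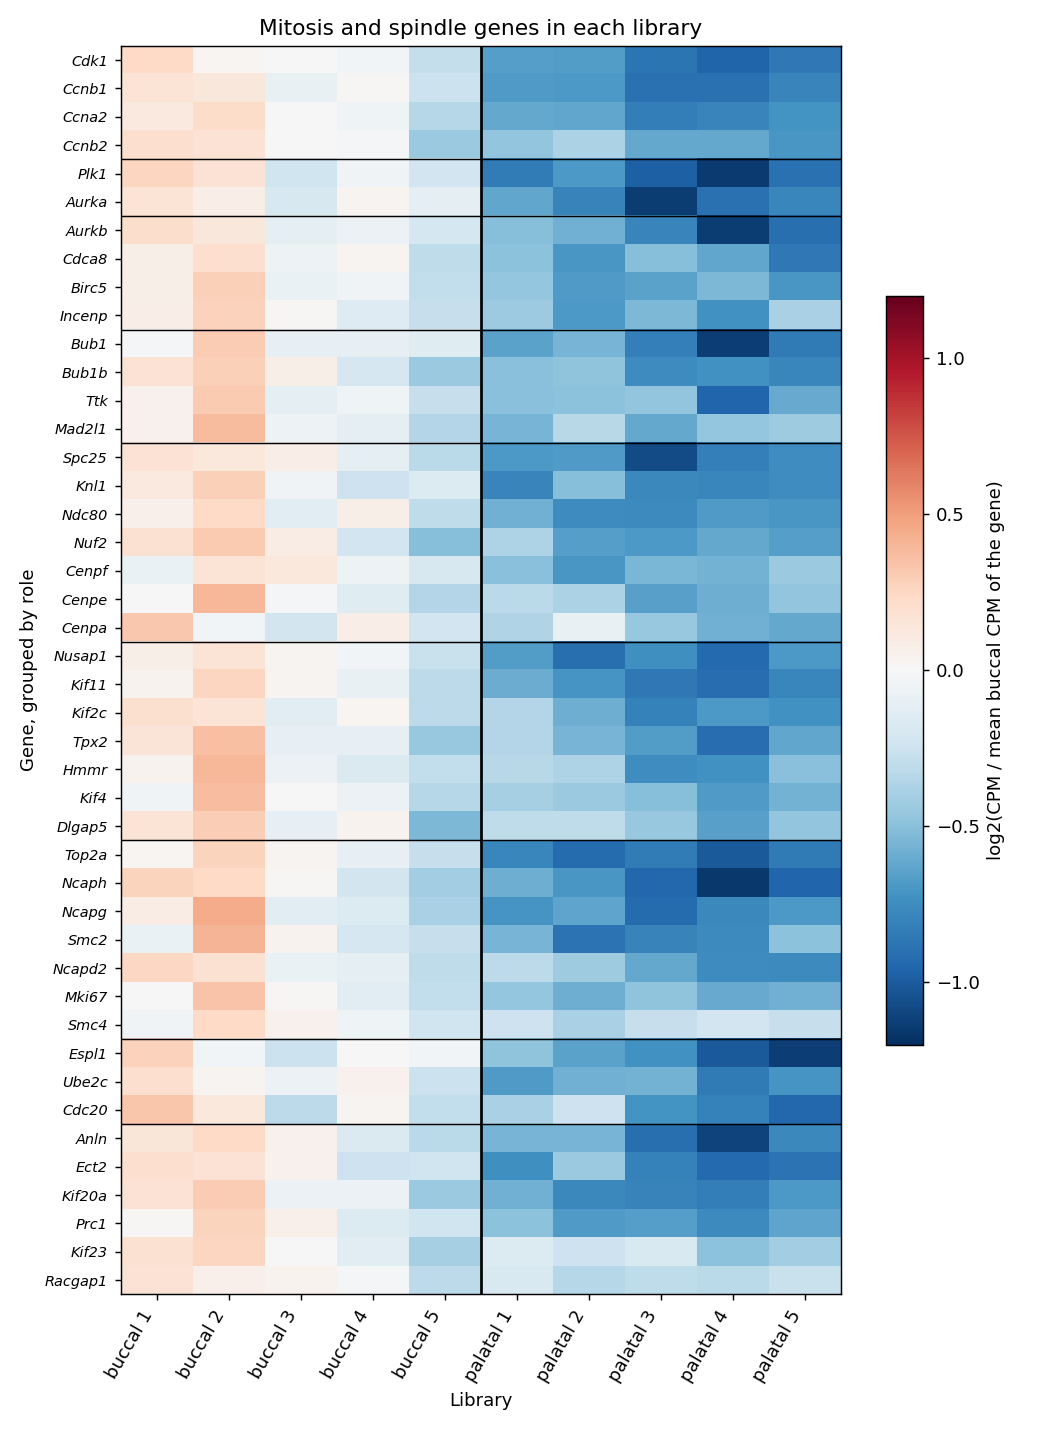
Level of each of the 44 genes (rows, grouped by role) in each of the 10 libraries (columns), as the log2 ratio of its CPM to the gene's mean buccal CPM; red is above and blue below that mean. Buccal library 5 is the lowest of the buccal columns in 38 rows, and in 33 rows every palatal column is below every buccal column.

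The cyclin and Cdk1 genes, which trigger entry into mitosis, all fell (4 of 4). Ccnb1, which encodes cyclin B1, stood at 33.5, 32.9, 28.1, 30.1 and 24.97 CPM in buccal libraries 1 to 5 and 18.7, 18.5, 16.1, 16.1 and 17.2 CPM in palatal libraries 1 to 5. Every palatal value lay below every buccal value, and the log2 fold change was -0.79 ± 0.09 (SE; edgeR adjusted p = 5.47e-06). Cdk1, the mitotic kinase that cyclin B activates, stood at 22.8, 19.6, 19.3, 18.8 and 15.8 CPM in buccal libraries 1 to 5 and 12.2, 12.1, 10.5, 9.88 and 10.6 CPM in palatal libraries 1 to 5. The sides did not overlap here either, and buccal library 5 was the lowest of its side for both genes (-0.80 ± 0.10; edgeR adjusted p = 1.38e-05). Ccna2, which encodes cyclin A2 of S phase and G2, fell by 0.71 log2 units. Ccnb2, the cyclin B2 gene, fell by 0.55 and was the only one of the 4 whose sides overlapped, with buccal library 5 at 16.001 CPM and palatal library 2 at 16.7 CPM.

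The kinases that act at the spindle poles carried the largest median difference among the 9 role groups, although that group holds only 2 genes. Plk1, the polo kinase of mitotic entry and exit, stood at 21.4, 20.2, 15.1, 17.4 and 15.3 CPM in buccal libraries 1 to 5 and 10.0, 11.1, 9.06, 8.05 and 9.64 CPM in palatal libraries 1 to 5. Its log2 fold change of -0.90 ± 0.11 was the largest of the 44 genes in this fit and left the palatal level at 53.6% of the buccal level (95% interval of the log2 fold change -1.15 to -0.65; edgeR adjusted p = 2.05e-05). Aurka, the Aurora A kinase of centrosome maturation and spindle assembly, stood at 11.1, 10.5, 8.67, 10.1 and 9.21 CPM in buccal libraries 1 to 5 and 6.43, 5.68, 4.51, 5.34 and 5.77 CPM in palatal libraries 1 to 5. The lowest buccal value was 8.67 CPM and the highest palatal value 6.43 CPM (-0.84 ± 0.11; edgeR adjusted p = 1.88e-05).

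The chromosomal passenger complex corrects faulty attachments at centromeres and then moves to the central spindle; its 4 genes all fell, each without overlap between the sides. Aurkb, its kinase, stood at 12.0, 11.4, 9.54, 9.85 and 8.95 CPM in buccal libraries 1 to 5 and 7.25, 6.93, 5.98, 4.70 and 5.52 CPM in palatal libraries 1 to 5 (-0.76 ± 0.12, SE; edgeR adjusted p = 1.78e-04). Cdca8, which encodes the subunit borealin, stood at 21.9, 24.0, 20.0, 21.3 and 16.9 CPM in buccal libraries 1 to 5 and 14.8, 12.8, 14.6, 13.5 and 11.5 CPM in palatal libraries 1 to 5 (-0.63 ± 0.10; edgeR adjusted p = 1.37e-04). Buccal library 5 was the lowest of its side for both. The survivin gene Birc5 fell by 0.60 and the scaffold gene Incenp by 0.55 log2 units.

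Genes of the spindle assembly checkpoint, which blocks anaphase while kinetochores are unattached, fell in 4 of 4 cases. Bub1, a checkpoint kinase that docks on the kinetochore, stood at 7.59, 9.49, 7.15, 7.19 and 6.95 CPM in buccal libraries 1 to 5 and 4.90, 5.20, 4.34, 3.51 and 4.26 CPM in palatal libraries 1 to 5 (-0.78 ± 0.12, SE; edgeR adjusted p = 1.23e-04). Buccal library 2 stood apart from the other buccal libraries for this gene. Bub1b, which encodes BubR1 of the mitotic checkpoint complex, stood at 29.8, 32.2, 27.7, 22.9 and 19.4 CPM in buccal libraries 1 to 5 and 18.7, 18.9, 15.6, 15.97 and 15.4 CPM in palatal libraries 1 to 5. Its sides were separate by a narrow margin, 19.4 CPM in buccal library 5 against 18.9 CPM in palatal library 2 (-0.64 ± 0.12; edgeR adjusted p = 8.39e-04). The kinase gene Ttk fell by 0.59, and Mad2l1, which encodes the Cdc20-binding checkpoint protein Mad2, by 0.48 with an overlap of 1 library on each side.

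All 7 centromere and kinetochore genes fell, 4 of them without overlap between the sides. Cenpf, which encodes a large kinetochore and nuclear matrix protein of G2 and mitosis, stood at 65.5, 77.6, 75.6, 66.3 and 60.6 CPM in buccal libraries 1 to 5 and 48.9, 42.7, 47.2, 46.5 and 50.6 CPM in palatal libraries 1 to 5 (-0.55 ± 0.08, SE; edgeR adjusted p = 4.94e-05). The lowest buccal value, 60.6 CPM, was above the highest palatal value, 50.6 CPM. Knl1, the kinetochore scaffold that recruits the Bub proteins, stood at 18.7, 21.1, 16.8, 14.6 and 15.4 CPM in buccal libraries 1 to 5 and 9.97, 12.2, 10.2, 10.0 and 10.3 CPM in palatal libraries 1 to 5 (-0.72 ± 0.10; edgeR adjusted p = 6.69e-05). The 3 genes of the microtubule-binding Ndc80 complex on the list fell by 0.79 (Spc25), 0.69 (Ndc80) and 0.59 (Nuf2) log2 units. Cenpa, the histone H3 variant that marks centromeres, fell by 0.40 (edgeR adjusted p = 0.0166) and Cenpe, a kinetochore motor, by 0.48; the sides overlapped for Cenpa, Cenpe and Nuf2.

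Spindle motors and microtubule-associated genes fell in 7 of 7 cases. Nusap1, which bundles spindle microtubules around chromosomes, stood at 36.2, 38.9, 35.4, 33.8 and 28.7 CPM in buccal libraries 1 to 5 and 21.7, 18.4, 20.8, 18.2 and 21.4 CPM in palatal libraries 1 to 5 (-0.78 ± 0.09, SE; edgeR adjusted p = 5.21e-06). Kif11, the Eg5 motor that pushes the spindle poles apart, stood at 41.2, 47.7, 40.8, 37.6 and 32.1 CPM in buccal libraries 1 to 5 and 26.4, 24.4, 22.0, 21.1 and 23.1 CPM in palatal libraries 1 to 5 (-0.77 ± 0.10; edgeR adjusted p = 2.06e-05). For both genes the lowest buccal value was that of library 5 and the sides were separate. The microtubule-depolymerising kinesin gene Kif2c fell by 0.62, the spindle assembly factor gene Tpx2 by 0.61, the hyaluronan-mediated motility receptor gene Hmmr by 0.52, the chromokinesin gene Kif4 by 0.51 and Dlgap5, which stabilises kinetochore fibres, by 0.43 log2 units. Tpx2 and Dlgap5 were the members of this group whose sides overlapped.

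Condensin and mitotic chromosome genes also fell in 7 of 7 cases, but over the widest range. Top2a, the topoisomerase that untangles sister chromatids, stood at 121, 143, 122, 111 and 98.2 CPM in buccal libraries 1 to 5 and 69.5, 62.9, 66.6, 59.4 and 66.1 CPM in palatal libraries 1 to 5 (-0.88 ± 0.09, SE; edgeR adjusted p = 2.11e-06, the smallest of the 44). The highest palatal value, 69.5 CPM, was below the lowest buccal value, 98.2 CPM. Ncaph, the kleisin subunit of condensin I, stood at 12.8, 12.6, 10.7, 9.12 and 7.99 CPM in buccal libraries 1 to 5 and 7.09, 6.57, 5.56, 4.78 and 5.52 CPM in palatal libraries 1 to 5 (-0.85 ± 0.14; edgeR adjusted p = 2.56e-04). The other condensin I subunit genes Ncapg and Ncapd2 fell by 0.74 and 0.56. The SMC subunits shared by both condensins differed in size: Smc2 fell by 0.69 (95% interval of the log2 fold change -0.95 to -0.43) and Smc4 by 0.28 (-0.45 to -0.11), and the difference between the pair was not tested. Mki67, which encodes the proliferation marker Ki-67 that coats mitotic chromosomes, fell from 236 ± 40.3 to 162 ± 7.28 CPM (SD over 5 libraries), a log2 fold change of -0.54 ± 0.10 by edgeR with adjusted p = 4.71e-04.

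The genes that promote anaphase fell in 3 of 3 cases. Ube2c, the ubiquitin-conjugating enzyme of the anaphase-promoting complex, stood at 32.5, 29.0, 27.0, 29.2 and 23.6 CPM in buccal libraries 1 to 5 and 17.7, 19.0, 19.1, 15.7 and 17.2 CPM in palatal libraries 1 to 5 (-0.67 ± 0.09, SE; edgeR adjusted p = 2.76e-05). Espl1, which encodes separase, the protease that opens cohesin rings, stood at 13.2, 10.7, 9.12, 10.8 and 10.7 CPM in buccal libraries 1 to 5 and 7.78, 6.99, 6.60, 5.42 and 4.98 CPM in palatal libraries 1 to 5 (-0.77 ± 0.13; edgeR adjusted p = 2.10e-04). Neither gene had overlapping sides. Cdc20, the activator of the anaphase-promoting complex, fell by 0.60, and its sides overlapped, with buccal libraries 3 and 5 at 24.3 and 24.6 CPM and palatal library 2 at 25.4 CPM.

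Central spindle and cytokinesis genes fell in 5 of 6 cases. Prc1, which cross-links the microtubules of the central spindle, stood at 53.3, 63.6, 55.1, 47.1 and 44.7 CPM in buccal libraries 1 to 5 and 37.4, 32.9, 33.4, 31.1 and 34.0 CPM in palatal libraries 1 to 5 (-0.64 ± 0.09, SE; edgeR adjusted p = 5.29e-05). Ect2, the exchange factor that activates RhoA at the cleavage furrow, stood at 32.5, 31.9, 29.2, 23.9 and 23.9 CPM in buccal libraries 1 to 5 and 17.0, 20.7, 16.1, 14.8 and 15.3 CPM in palatal libraries 1 to 5 (-0.75 ± 0.11; edgeR adjusted p = 8.95e-05). Both were separate between the sides, as were the contractile ring scaffold gene Anln and the kinesin gene Kif20a, which fell by 0.76 and 0.73 log2 units. The genes of centralspindlin, the complex of the kinesin Kif23 and the GTPase-activating protein Racgap1 that recruits Ect2, stood nearest to 0 in this group. Kif23 stood at 34.6, 36.6, 30.4, 28.0 and 23.2 CPM in buccal libraries 1 to 5 and 27.3, 25.7, 26.8, 21.7 and 22.8 CPM in palatal libraries 1 to 5. Its log2 fold change was -0.29 ± 0.11 (SE, 95% interval -0.53 to -0.05), and it did not pass (edgeR adjusted p = 0.0518, unadjusted p = 0.0204). Without buccal library 5, the lowest of its side, Kif23 passed at -0.38 (edgeR adjusted p = 0.00690). It did not pass without any other single library (edgeR adjusted p from 0.0520 to 0.125). Racgap1 stood at 47.5, 43.9, 43.3, 41.6 and 33.8 CPM in buccal libraries 1 to 5 and 37.1, 33.3, 34.1, 33.6 and 34.9 CPM in palatal libraries 1 to 5, and at -0.28 ± 0.08 its difference was the smallest of the 44 (edgeR adjusted p = 0.0137). The calls for Racgap1 and Smc4 were lost when library 2 was left out on both sides (edgeR adjusted p = 0.0535 and 0.0518).

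**Figure D3:**
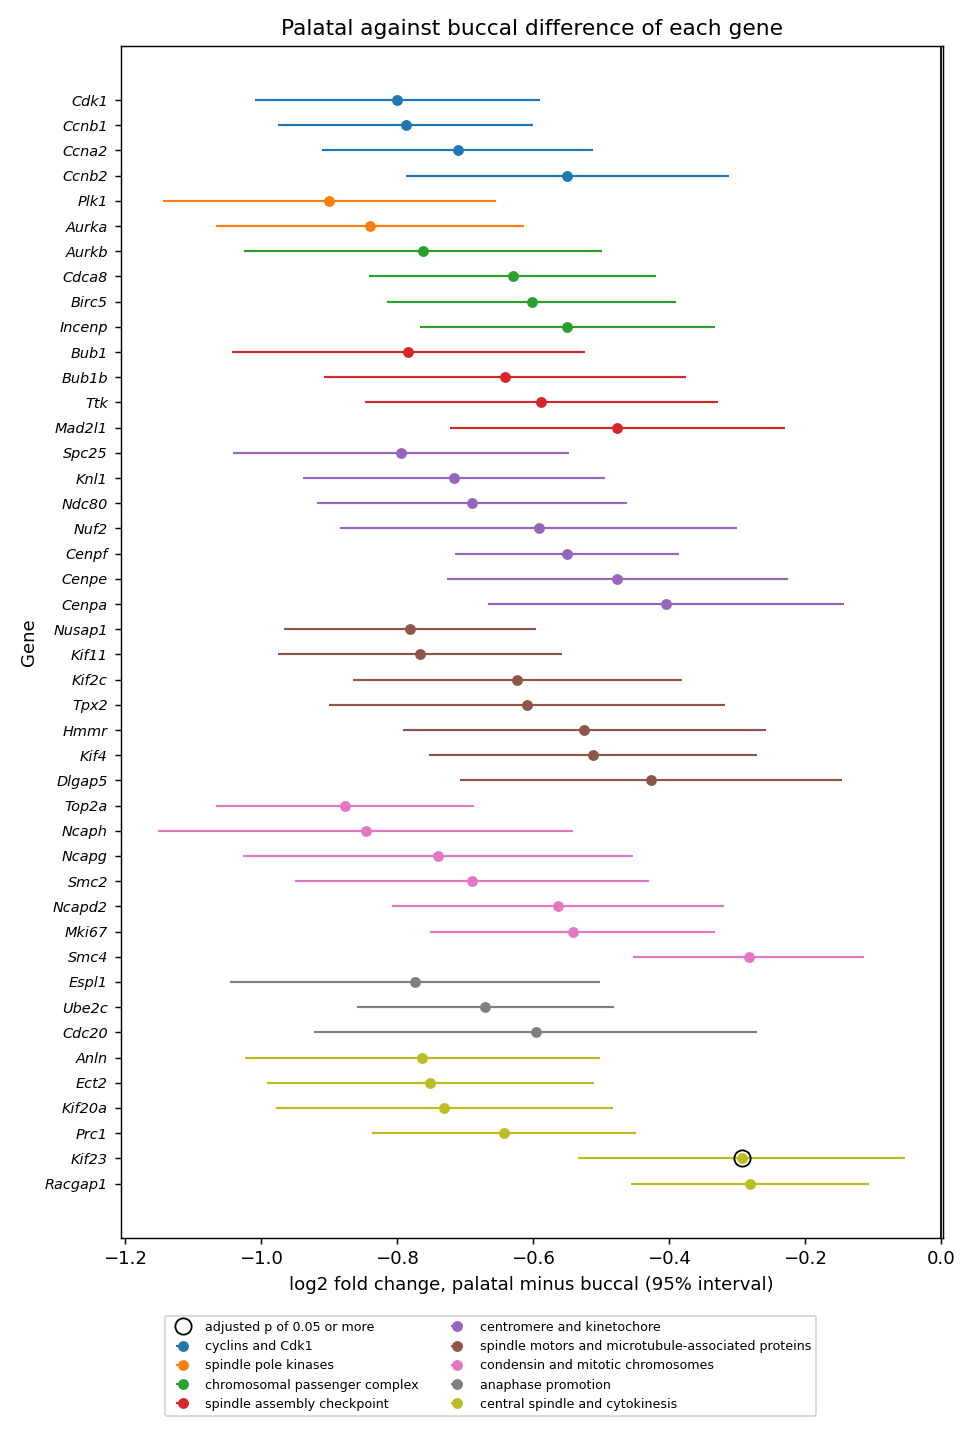
Log2 fold change, palatal minus buccal, of each of the 44 genes (horizontal axis) with its 95% interval from the edgeR fit, coloured by role; the open ring marks the gene that did not pass. All 44 estimates lie between -0.90 and -0.28, and Smc4, Kif23 and Racgap1 lie nearest to 0.

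Many of the 44 genes ranked the libraries of a side alike. In buccal samples library 2 was the highest of its side for 28 genes and library 1 for the other 16, while library 5 was the lowest for 38. Their summed level was 1609, 1807, 1509, 1419 and 1233 CPM in buccal libraries 1 to 5. In palatal samples it was 1079, 1016, 979.6, 925 and 983 CPM, with library 1 the highest for 27 genes and library 4 the lowest for 20. The sums of the sides did not overlap. Buccal library 5 had the largest total count of the 10 libraries and palatal library 4 the smallest, and each was the lowest of its side in summed level. The coefficient of variation within a side had a median of 15.0% in buccal and 9.70% in palatal libraries, and it was larger in buccal for 38 of the 44 genes. The library ranks and this variation were not set beside those of all tested genes, so they may not be particular to the 44 genes. Of the 11 genes whose sides overlapped, buccal library 5 held the lowest buccal value in 10, and without that library 2 genes (Cenpa and Cdc20) overlapped. The number was 8 without palatal library 1 and 7 without palatal library 2. Leaving out a library can only keep or lower it. Over all tested genes the overlap was read only with all 10 libraries, where every palatal library lay below every buccal library for 14.7%.

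The rest of the mitotic machinery was read from a separate list of 88 genes, all of them tested. That list was also chosen with earlier results of these data known, so its counts are a description and not independent support. Of the 88 genes, 67 fell, 1 rose and 20 did not pass, with a median log2 fold change of -0.51. The members with the smallest p were Ncapg2, a condensin II subunit, at -0.90 ± 0.11, the nuclear lamin gene Lmnb1 at -0.65 ± 0.08, the checkpoint gene Kntc1 at -0.92 ± 0.12 and Ckap2l, a mitotic spindle gene, at -0.80 ± 0.11 (SE; edgeR adjusted p from 9.61e-06 to 3.29e-05). The gene that rose was Cdc25b, a phosphatase that activates Cdk1, from 48.7 ± 3.79 to 64.0 ± 5.07 CPM (SD over 5 libraries), a log2 fold change of 0.40 ± 0.07 by edgeR with adjusted p = 5.20e-04. Cdc25a and Cdc25c, the other two phosphatases of that family, fell by 0.72 and 0.54. Subgroups of this list were drawn after its values were seen. All 8 further mitotic kinesins fell, although reads of the similar Kifc1 and Kifc5b may have been shared between them, and 9 of 10 checkpoint and cohesion genes fell. Of 13 genes of the constitutive centromere network, which stays on centromeres through the cell cycle, 6 fell and 7 did not pass (median -0.28). Of the 3 condensin II genes, Ncapg2 and Ncapd3 fell by 0.90 and 0.22, and Ncaph2 stood at -0.14 ± 0.06 (edgeR adjusted p = 0.0870).

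**Figure D4:**
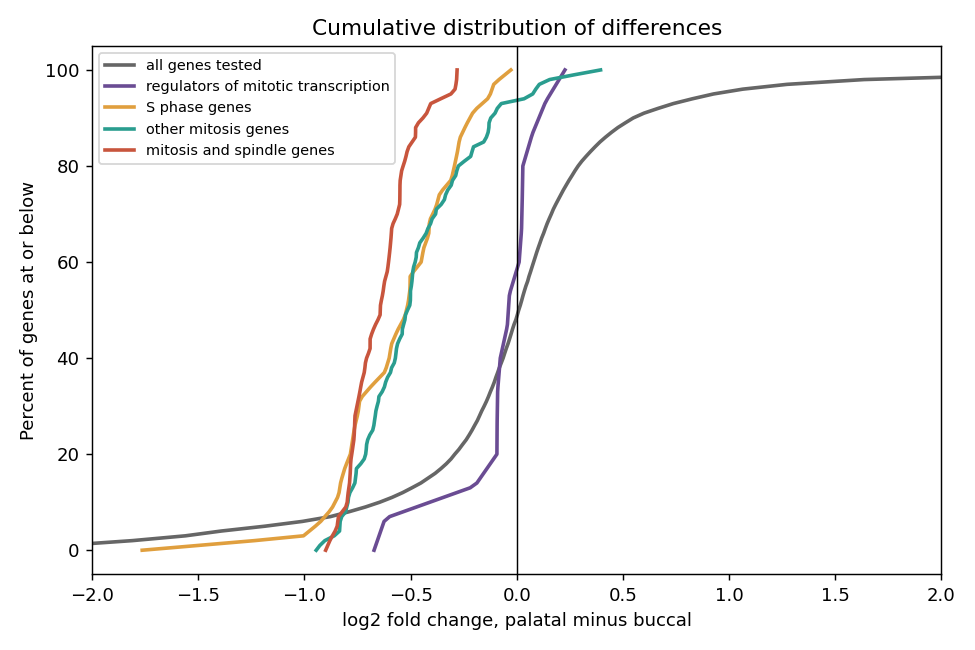
Cumulative percent of genes (vertical axis) at or below each log2 fold change, palatal minus buccal (horizontal axis), for the mitosis and spindle genes, other mitosis genes, S phase genes, regulators of mitotic transcription and all tested genes. The mitosis and spindle genes have a median of -0.64, the other mitosis genes -0.51, the S phase genes -0.52, the regulators -0.04 and all tested genes 0.01.

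Among 16 listed regulators of mitotic transcription, 2 fell, 0 rose and 14 did not pass (median -0.04). Those that fell were Foxm1, the forkhead factor of G2, from 18.3 ± 3.04 to 11.9 ± 2.19 CPM (SD over 5 libraries), a log2 fold change of -0.62 ± 0.13 by edgeR with adjusted p = 0.00182, and Mybl2, which encodes B-Myb, from 3.17 ± 0.572 to 1.98 ± 0.293 CPM, or -0.67 ± 0.15 (adjusted p = 0.00291). The MuvB subunit genes Lin9, Lin37, Lin52 and Lin54 stood at -0.09 ± 0.13, -0.20 ± 0.09, 0.23 ± 0.09 and 0.03 ± 0.10, and the NF-Y genes Nfya, Nfyb and Nfyc at 0.02 ± 0.08, -0.08 ± 0.10 and -0.03 ± 0.08 (SE, none past the edgeR test). Of 15 genes for core subunits and an E2 enzyme of the anaphase-promoting complex, 1 fell, 1 rose and 13 did not pass (median 0.05): Anapc2 at -0.34 ± 0.08 and Anapc16 at 0.27 ± 0.10. Of 12 cohesin genes, 1 fell and 2 rose (median -0.02), with the S phase acetyltransferase gene Esco2 at -0.75 ± 0.13 and Esco1 and Stag2 at 0.25 ± 0.08 and 0.23 ± 0.09. Of 36 S phase genes, 29 fell, 0 rose and 7 did not pass (median -0.52). Those with the smallest p were Ccne1 at -1.76 ± 0.17, Mcm2 at -0.81 ± 0.09, Pola1 at -0.83 ± 0.11 and Uhrf1 at -0.93 ± 0.12.

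Marker lists of the cells that could carry these transcripts were measured beside them. Basal keratinocyte markers moved the other way: of 12 tested, 0 fell and 6 rose (median 0.26), among them Krt15 at 1.48 ± 0.16 and Krt14 at 0.96 ± 0.13, while Krt5 stood at -0.06 ± 0.09 and Trp63 at 0.13 ± 0.10 (edgeR adjusted p = 0.591 and 0.332). Their summed level was 11741 to 14581 CPM in buccal and 16399 to 20382 CPM in palatal libraries. Leukocyte markers moved with the mitotic genes: of 20 listed, 16 were tested, 14 fell and 1, Itgam, rose (median -1.71). The summed level was 178 to 297 CPM in buccal libraries, highest in library 2 (297 CPM) and lowest in library 3 (178 CPM), and 70.7 to 97.4 CPM in palatal libraries. No leukocyte marker was at 0 counts over all libraries, and Ptprc, the pan-leukocyte CD45 gene, went from 8.68 ± 2.13 to 2.79 ± 0.347 CPM (SD, n = 5). The part of leukocytes or of basal keratinocytes in the mitotic difference was not tested. Suprabasal keratinocyte markers split by gene, with 6 lower and 4 higher of 12. Their summed level was lower in palatal, at 125061 to 149153 CPM in buccal and 110542 to 120779 CPM in palatal libraries. Of 8 fibroblast markers 6 were tested and 3 rose, of 8 endothelial markers 3 were tested (1 lower, 1 higher), of 5 melanocyte markers 1 was tested and did not pass, and of 5 Merkel cell markers 4 were tested (1 lower, 3 higher). Summed levels were 31.2 to 37.1 CPM in buccal and 108 to 118 CPM in palatal libraries for fibroblast markers, and at most 7.81 CPM for endothelial markers. Merkel cell markers summed to 86.7 to 109.5 CPM in buccal and 86.9 to 100.4 CPM in palatal libraries, so their sums overlapped. The tested fibroblast marker with the largest difference was Dcn at 3.47 ± 0.17.

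**Figure D5:**
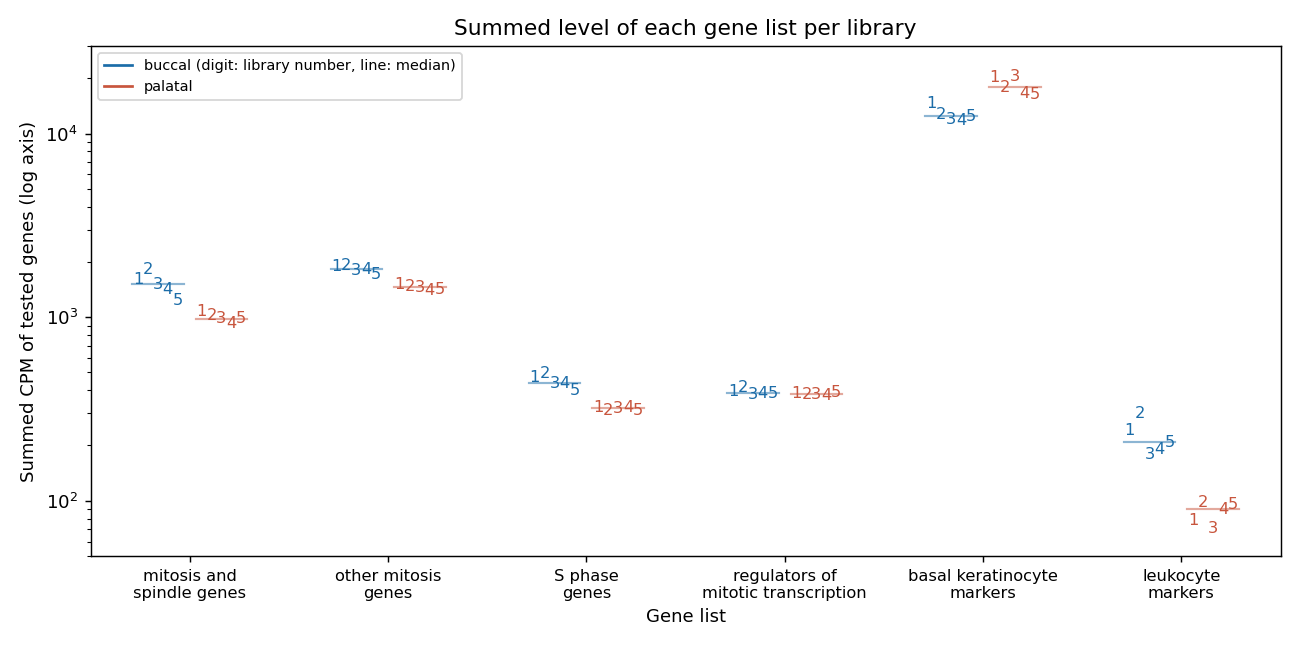
Summed CPM of the tested genes of 6 lists (log axis) in each buccal and palatal library; digits are library numbers and lines are medians of 5 libraries. The mitosis and spindle genes sum to 1233 to 1807 CPM in buccal and 925 to 1079 CPM in palatal libraries, the leukocyte markers are also lower in palatal, the basal keratinocyte markers are higher, and the regulators of mitotic transcription overlap.

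Values of the genes were also set beside their promoter letters. The 27 genes with CHR letters within 50 bases of the start had a median log2 fold change of -0.69 (range -0.90 to -0.28), and the 10 with a window but without those letters -0.60 (range -0.85 to -0.48). Among the genes with the largest differences were Plk1, Top2a and Aurka, with CHR letters near the start. Ncaph, Ccnb1 and Nusap1, with no CHR letters in their windows, were also among them. Kif23 and Racgap1, which had the letters beginning at base 3 and base 6 of the transcript, were among those with the smallest differences. These medians are a description and were not tested.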

How the data were processed

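Stranded libraries of polyadenylated RNA were read from a single end, per the labels' protocols. Build GRCm39 and the tools HTSeq 2.01, DESeq2 1.36.0, TopHat2 2.1.1 and cutadapt 2.10 stand in the submitters' processing notes, without roles. How reads were assigned by strand is not given in the sources used here. A single deposited table holds, per the file headers, the authors' raw count per gene and library. It also holds the authors' DESeq2-normalized values, a signal in which each library's counts are divided by its own size factor, as the values show. Values stand for 49164 of 55414 genes; the 6250 blank ones were dropped.

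The 5 buccal and 5 palatal libraries were grouped by the tissue label. Genes were kept by filterByExpr (minimum count 10), which left 14062, among them all 44 described here, whose lowest count in any library was 88. Libraries were scaled by TMM and compared by edgeR's quasi-likelihood test with robust dispersion, two-sided, with adjustment over all genes tested (R 4.3.3, edgeR 4.0.16; alternatives with DESeq2 1.42.0 and limma 3.58.1). Standard errors were derived from the log2 fold change and the F statistic. The fit was tested on simulated counts.

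The alternatives were other scalings, filters, tests, thresholds, the library number as a block, thinning, and leaving out libraries. Leaving out libraries for the count of genes without overlap, and the split of promoter matches by distance from the start, were added after seeing the data. The 44 genes and all lists were chosen with earlier results of these data known. Per-library values are given for up to 2 genes of each role group with the smallest p, for genes that did not pass or went the other way, and for the genes with the largest and smallest difference; of other lists up to 4 with the smallest p, and any other mitosis gene that passed the other way than its list. Other genes were named after their values were seen. The deposited files give no coordinates; promoter windows are RefSeq's on GRCm38.p6, matched by symbol.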

Additional observations from a re-analysis of the deposited data

Results flagged for a closer look

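Of the 88 sets of 5 values that the 44 genes give on the 2 sides, 3 had an end value far from the other 4 in proportion to the whole range; chance flags about 1 set in 20. For Bub1, the end value was buccal library 2 at 9.49 CPM, with the next library at 7.59 CPM. For Nuf2, palatal library 1 stood at 11.5 CPM, with the next at 9.72 CPM. For Knl1, palatal library 2 stood at 12.2 CPM, with the next at 10.3 CPM.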

How the results depend on the processing

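None of the 44 genes changed direction under any of the 21 alternatives that refitted the values, and their log2 fold changes lay between -0.96 and -0.19. The changes of threshold, which bring the alternatives to 23, keep the fold changes of the main fit and cannot alter a direction. The number that fell was 43 or 44 under every other scaling, filter and test and without any single library, 41 with library 2 left out on both sides and 39 at an adjusted p of 0.01. Kif23 passed the test under 6 alternatives, namely library totals only, no filter, DESeq2, the block, thinning and leaving out buccal library 5. Against a fold of 1.5, 5 of the 44 genes and 2 of the other 88 mitosis genes passed as lower. Over all 14062 tested genes, 816 (5.8%) passed as lower, and 1491 passed in either direction. Without each library in turn the median of the 44 genes ran from -0.72 to -0.57. The other mitosis genes lower ran from 58 to 66, and the genes past the threshold from 4916 to 5399. The genes without overlap ran from 33 to 42. Leaving out a library can only keep or raise that count, so it is not a check, and the same count over all tested genes was not made. With the library number as a replicate block, 44 genes fell (median -0.63), 68 other mitosis genes fell and 5518 genes passed in all. Same-numbered libraries correlated in their deviations from the side means at -0.02 to 0.33. Numbers 1 and 4 correlated best with their own number from both sides, number 5 from the buccal side only, and numbers 2 and 3 from neither. The numbers were therefore not taken as pairs in the main fit, and a shared source for some of them was not tested.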

Other observations

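The CHR letters were also read over all genes with a promoter window, as a description with no test. Of 484 tested genes with these letters within 50 bases of the start, 159 (32.9%) were lower and 82 (16.9%) higher in palatal epithelium. With every gene of the cell cycle lists left out, 422 remained, of which 107 (25.4%) were lower and 81 (19.2%) higher. Among unlisted genes without the letters near the start, 19.5% were lower and 18.4% higher. Where unlisted genes had both the CHR letters near the start and CCAAT in the window, 65 of 227 (28.6%) were lower and 37 (16.3%) higher. The lists do not hold every cell cycle gene, so some of these genes may be cell cycle genes that were not listed.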
